A study of Homo sapiens with 6 samples.

Results

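Antisense noncoding RNA genes were examined in G401, a malignant rhabdoid tumor cell line without SMARCB1, for 2 histone modifications before and after inhibition of Polycomb repressive complex 2 (PRC2). They were taken by name, as the rows of the ChIP-seq count table whose symbol ends in -AS and a number, and only rows with at least 20 input counts in the sum of both input libraries were kept. Of 876 rows with such a name, 434 were kept, among 29528 rows of any kind with the same amount of input in a table of 56638 rows. Of the others, 414 had no input counts at all and 28 had between 1 and 19.

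In all, 6 libraries were used, an H3K27me3, an H3K4me3 and an input library from cells given the solvent DMSO and the same set from cells given 3 µM MAK683 for 3 days. MAK683 binds EED, the subunit of PRC2 that reads trimethylated lysine 27 of histone H3, and blocks the complex whether EZH1 or EZH2 is its enzyme. All cells were of 1 established line, and there was 1 library for each treatment and antibody. No difference between treatments therefore has a replicate check, no p-value is given, and the intervals below cover counting error only.

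A gene called X-AS1 is transcribed from the strand opposite to gene X. Some such genes start beside the sense promoter and run away from it, others run through the body of the sense gene, and a few are known to act on transcription nearby, while for most no function is known. H3K27me3, the product of PRC2, covers silent developmental genes in broad domains, and H3K4me3 sits in a narrow zone at the promoters of active genes. In stem cells many developmental promoters carry both, a state called bivalent, in which the gene is off but can be activated. CpG-rich promoters are the usual recruiting sites of both modifications in mammals.

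The promoters of 7 antisense genes described below are shown here as examples, and they do not represent the antisense genes as a set. They are the windows from 250 bases before to 50 bases after the transcription start, taken from RefSeq (GRCh38) and found again without a mismatch on GRCh37, the build of the counts. Where RefSeq gave several starts the most upstream was used, and capitals mark each CG dinucleotide, the sequence whose density defines a CpG-rich promoter. The windows lie at GATA3-AS1 (chr10:8095398-8095697, minus strand, 36 CG), SOX21-AS1 (chr13:95364720-95365019, plus strand, 18 CG), MEIS1-AS3 (chr2:66660553-66660852, minus strand, 21 CG), ZNF503-AS2 (chr10:77161036-77161335, plus strand, 39 CG), DLX6-AS1 (chr7:96643328-96643627, minus strand, 3 CG), TMPO-AS1 (chr12:98909955-98910254, minus strand, 39 CG) and PAXIP1-AS1 (chr7:154794893-154795192, plus strand, 38 CG).

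GATA3-AS1: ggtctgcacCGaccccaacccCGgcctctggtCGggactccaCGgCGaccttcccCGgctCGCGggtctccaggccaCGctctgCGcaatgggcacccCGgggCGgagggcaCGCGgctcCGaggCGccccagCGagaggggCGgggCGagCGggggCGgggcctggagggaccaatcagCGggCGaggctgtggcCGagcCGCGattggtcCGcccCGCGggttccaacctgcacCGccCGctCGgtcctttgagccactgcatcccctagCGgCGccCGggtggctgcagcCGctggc

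SOX21-AS1: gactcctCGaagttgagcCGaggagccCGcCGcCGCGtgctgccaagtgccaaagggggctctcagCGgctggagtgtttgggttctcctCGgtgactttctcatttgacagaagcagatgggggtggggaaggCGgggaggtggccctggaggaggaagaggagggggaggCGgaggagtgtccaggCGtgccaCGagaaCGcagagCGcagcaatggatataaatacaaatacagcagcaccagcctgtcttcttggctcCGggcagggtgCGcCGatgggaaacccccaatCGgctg

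MEIS1-AS3: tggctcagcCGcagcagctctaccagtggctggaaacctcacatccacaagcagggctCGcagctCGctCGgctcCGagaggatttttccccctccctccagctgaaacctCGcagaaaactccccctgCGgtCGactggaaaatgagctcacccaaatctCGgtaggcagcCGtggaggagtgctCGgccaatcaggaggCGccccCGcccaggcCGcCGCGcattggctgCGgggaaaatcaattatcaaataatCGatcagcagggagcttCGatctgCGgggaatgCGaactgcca

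ZNF503-AS2: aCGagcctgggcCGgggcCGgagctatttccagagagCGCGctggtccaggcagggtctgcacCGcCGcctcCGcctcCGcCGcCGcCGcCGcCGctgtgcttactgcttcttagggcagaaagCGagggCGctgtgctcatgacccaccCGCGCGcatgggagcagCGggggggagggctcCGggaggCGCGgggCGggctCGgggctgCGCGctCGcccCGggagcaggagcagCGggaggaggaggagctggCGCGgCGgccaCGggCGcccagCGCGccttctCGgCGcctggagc

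DLX6-AS1: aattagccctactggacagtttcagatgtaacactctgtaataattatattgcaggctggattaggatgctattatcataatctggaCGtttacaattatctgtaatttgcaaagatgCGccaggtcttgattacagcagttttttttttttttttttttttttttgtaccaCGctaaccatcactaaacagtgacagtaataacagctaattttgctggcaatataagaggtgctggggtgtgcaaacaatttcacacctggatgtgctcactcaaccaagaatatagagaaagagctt

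TMPO-AS1: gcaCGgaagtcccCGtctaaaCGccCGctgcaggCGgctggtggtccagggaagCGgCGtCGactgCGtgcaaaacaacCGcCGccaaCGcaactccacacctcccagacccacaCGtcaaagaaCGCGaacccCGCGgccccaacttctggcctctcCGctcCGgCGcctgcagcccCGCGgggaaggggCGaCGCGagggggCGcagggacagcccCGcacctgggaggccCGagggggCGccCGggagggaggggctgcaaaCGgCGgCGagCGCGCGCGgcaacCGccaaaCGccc

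PAXIP1-AS1: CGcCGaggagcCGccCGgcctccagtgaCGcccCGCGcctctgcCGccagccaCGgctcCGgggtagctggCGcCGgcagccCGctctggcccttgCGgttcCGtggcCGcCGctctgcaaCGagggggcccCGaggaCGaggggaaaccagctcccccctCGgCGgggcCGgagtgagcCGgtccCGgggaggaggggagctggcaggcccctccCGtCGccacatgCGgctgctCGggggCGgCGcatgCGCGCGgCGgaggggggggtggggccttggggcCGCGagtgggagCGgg

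GATA3-AS1, SOX21-AS1, MEIS1-AS3 and ZNF503-AS2 had CpG-rich promoters, H3K27me3 above input and an H3K4me3 increase with MAK683. DLX6-AS1 had H3K27me3 above input over its whole row and a promoter window with few CG. TMPO-AS1 and PAXIP1-AS1 had CpG-rich promoters with H3K4me3 and no H3K27me3 above input. Of the 434 genes, 339 had a RefSeq window, and 222 of these (65.5%) were CpG-rich, with at least 50% G or C and an observed to expected CG ratio of at least 0.6. Among all 14323 rows with a window and enough input the share was 65.3%. Among the 47 antisense genes with a window and H3K27me3 at 2 times input in DMSO it was 55.3%, so the examples above do not show the common case. The median number of CG in a window was 21 in the antisense genes and 23 in all rows with a window. Of all rows with a window 98.3% had at least 1 CG in it.

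What the table measured at these genes depended on how they overlap their neighbors. In GENCODE release 44 on GRCh37, 424 of the 434 genes were found, 406 of them as long noncoding RNA, 12 as protein-coding genes and 6 as unitary pseudogenes. Of the 403 rows without input counts that were placed, 383 (95.0%) lay wholly within the spans of other genes, against 19 of the 424 placed genes that were kept (4.48%). Per kb of its whole span, an antisense gene with more than 0% but under 50% of its span free of other genes had a median of 7.97 input counts, and one with at least 50% free had 22.0. Per kb of free span the medians were 28.9 and 26.7 input counts, near the 27.6 of protein-coding genes. The counts of an antisense gene thus follow the DNA it shares with no other gene, so most genes described here have DNA of their own and few lie wholly within other genes. The 19 exceptions include GATA3-AS1, PDZRN3-AS1, AMER2-AS1 and SAMSN1-AS1, which have 0% free span in this annotation but have counts. Which DNA was counted for these genes was not tested. The rule by which reads over several genes were assigned is not given in the sources used here.

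The libraries held between 13308099 and 21281877 counts, and a count of 0 allows up to 0.141 to 0.225 CPM (counts per 1e6 counts of the library). The antisense genes took between 1.10% and 1.45% of each library. SMARCB1, which is missing from G401, had 0 input counts in both treatments. Levels are given as the log2 ratio of CPM in a modification library to CPM in the input of the same treatment, with 0.05 CPM added to each, so that 0 is the input level and 1 is 2 times input. The input corrects for the length counted. A mark confined to the promoter, as H3K4me3 is, is still diluted in a long row, so H3K4me3 levels are also given by length class. Changes are the log2 ratio of CPM in MAK683 to DMSO, relative to the median of all rows tested. They show where a modification was gained or lost relative to the other rows and not how much of it was left in the cell. The same limit holds for levels in MAK683, which are ratios of library shares without spike-in scaling. A gene that stays above input there has not thereby kept its amount of H3K27me3. The authors reported that H3K27me3 was depleted over the whole genome in G401 with MAK683.

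H3K27me3 was found at least at 2 times input in 57 of the 434 antisense genes in DMSO (13.1%, against 12.6% of all rows). In MAK683 it was found in 41 (9.45%, against 8.84% of all rows). The median level over all antisense genes was -0.69 in DMSO and -0.47 in MAK683, beside -0.66 and -0.49 over all rows. Without regard to size, H3K27me3 was above input in 125 antisense genes in DMSO (28.8%, against 30.9%) and in 133 in MAK683 (30.6%, against 32.6%). By these measures antisense genes carried H3K27me3 about as often as other rows.

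H3K4me3 reached 2 times input in 135 antisense genes in DMSO (31.1%, against 22.3% of all rows) and in 129 in MAK683 (29.7%, against 21.2%). This higher share rested on genes with little input. Among the 304 antisense genes with at least 100 input counts, 17.8% reached 2 times input in DMSO, below the 24.2% of all rows with as much input. Other long noncoding RNA rows with at least 100 input counts were at 10.8%.

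Both modifications reached 2 times input in 13 antisense genes in DMSO (3.00%, against 1.13% of all rows) and in 11 in MAK683 (2.53%, against 1.24%). Of the 13 genes 11 had under 100 input counts, so this higher share in DMSO rested on genes with little input. Single levels among them are imprecise. Among the 304 antisense genes with at least 100 input counts only ZNF503-AS2 and HOXD-AS2 had both. Of all rows with as much input 119 of 21263 did (0.560%). The 13 were GATA3-AS1, GATA6-AS1, SOX21-AS1, ZNF503-AS2, HOXD-AS2, GAS6-AS2, HHIP-AS1, THRB-AS1, SH3RF3-AS1, PRKAG2-AS1, MLLT4-AS1, DOCK9-AS2 and UBXN10-AS1. Of the 12 with a promoter window 10 were CpG-rich. Of the 13, 5 are named for developmental transcription factors or a HOX cluster, and THRB-AS1 for a thyroid hormone receptor.

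**Figure D1:**
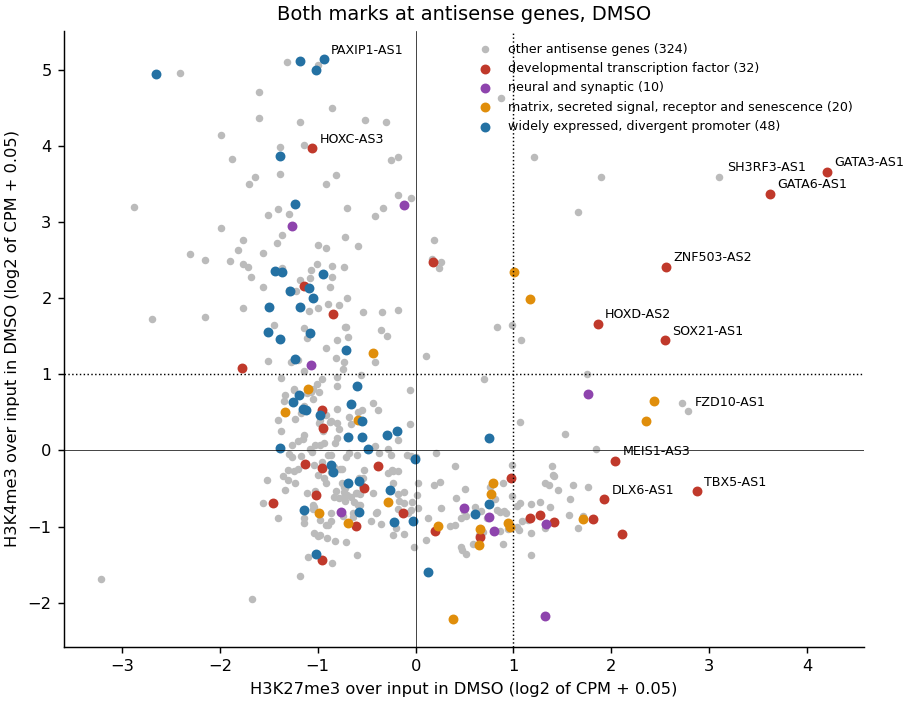
H3K27me3 (x axis) and H3K4me3 (y axis) over input in DMSO for 434 antisense genes, on a log2 scale, with the dotted lines at 2 times input and colors for 4 lists of genes named by their sense gene. Most genes lie at or below input in H3K27me3, the genes high in H3K4me3 spread upward at the left, and GATA3-AS1, GATA6-AS1 and SH3RF3-AS1 stand at the upper right with both modifications above 3.

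Antisense genes were then grouped in lists, chosen from gene names by what the sense gene is known to be. The lists are not complete, and many listed symbols could not be measured. The developmental list kept 32 of 81 symbols and the neural list 10 of 77. The matrix list kept 20 of 74 and the widely expressed list 48 of 77. Of the rest 18, 42, 31 and 5, in this order, had no input counts, and 31, 25, 22 and 19 had no row. The antisense genes of developmental transcription factors reached 2 times input in H3K27me3 in 13 of 32 in DMSO and in 10 of 32 in MAK683. Among all rows the shares were 12.6% and 8.84%. With at least 100 input counts it was 9 of 22 in DMSO, against 10.7% of all rows. The antisense genes of neural and synaptic genes reached 2 times input in 3 of 10 in both treatments. Those of matrix, secreted signal, receptor and senescence genes did so in 5 of 20 in DMSO and 2 of 20 in MAK683. The order of these 3 lists depended on the threshold, since H3K27me3 was above input in DMSO in 17 of 32, 6 of 10 and 13 of 20 genes (30.9% of all rows). None of the 48 antisense genes of widely expressed genes reached 2 times input in H3K27me3 in either treatment. The median H3K27me3 level in DMSO was 0.19, 0.63, 0.65 and -0.96 in these lists, in the same order. In the last list 19 of the 48 genes had H3K4me3 at 2 times input in DMSO (39.6%). This was so for 22.3% of all rows and for 41.4% of all rows with a CpG-rich window.

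GATA3-AS1, divergent from the gene of a zinc finger factor of T cell and mammary development, had the highest level of both modifications together. Its H3K27me3 counts were 206 in DMSO and 48 in MAK683, with 156 and 338 H3K4me3 counts, and only 9 and 16 input counts. Its H3K27me3 level was 4.21 in DMSO and 2.07 in MAK683, and its H3K4me3 level was 3.66 and 4.31. Relative to the median row H3K27me3 changed by -1.65, with 18.9% of its counts in MAK683 (95% interval 14.3 to 24.3%, against 42.5% at the median row). H3K4me3 changed by 1.22, with 68.4% of its counts in MAK683 (64.1 to 72.5%, against 48.1%). The gene lies on chromosome 10, 8092413 to 8095447, on the minus strand, within 1 kb of the start of GATA3. GATA3 itself had H3K27me3 levels of 1.62 and 1.18 and an H3K4me3 change of 0.98, so the sense gene moved the same way.

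SOX21-AS1, opposite to the gene of an HMG box factor of neural progenitors, had H3K27me3 counts of 271 (DMSO) and 112 (MAK683), with 140 and 354 H3K4me3 counts and 40 and 59 input counts. Its H3K27me3 level fell from 2.55 to 1.46, while its H3K4me3 level rose from 1.45 to 2.56. The H3K4me3 change was 1.44, and that of SOX21 was 1.05. The annotated span of SOX21-AS1 is 99.98 kb, with 0.990 input counts per kb against a median of 18.8 over the antisense genes kept, so the counted span may not be the annotated one.

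MEIS1-AS3, opposite to the gene of a homeobox cofactor of HOX proteins, had 321 and 112 H3K27me3 counts, 78 and 194 H3K4me3 counts and 68 and 115 input counts. H3K27me3 was at 2.04 in DMSO and at 0.51 in MAK683, a change of -1.08 relative to the median row, and H3K4me3 changed by 1.41. MEIS1, whose row spans 140 kb, changed by -0.34 and 0.72. Both rows moved in the same directions, the short antisense row by more.

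ZNF503-AS2 belongs to the gene of a zinc finger repressor of the developing brain and limb. Its H3K27me3 counts were 587 in DMSO and 247 in MAK683, with 589 and 913 H3K4me3 counts and 87 and 130 input counts. Relative to the input of each treatment it was high in both modifications, at 2.56 and 1.47 for H3K27me3 and 2.41 and 2.79 for H3K4me3. The changes were -0.81 and 0.74.

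GATA6-AS1, beside the gene of an endoderm and heart factor, had 207 and 135 H3K27me3 counts, 193 and 333 H3K4me3 counts and 14 and 44 input counts. Its H3K4me3 change was 0.90, but the input changed more, by 1.38, so the H3K4me3 level over input went from 3.37 to 2.88. The direction of H3K4me3 at GATA6-AS1 therefore depended on whether the input was divided out. At GATA3-AS1, SOX21-AS1, MEIS1-AS3 and ZNF503-AS2 the input changed by 0.33 to 0.57, less than H3K4me3. The part of the input in these changes was not tested.

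TBX5-AS1, beside the gene of a T-box factor of the heart and forelimb, carried H3K27me3 with little H3K4me3. It had 373 and 211 H3K27me3 counts, 38 and 48 H3K4me3 counts and 44 and 63 input counts, levels of 2.87 and 2.28 for H3K27me3 and of -0.54 and -0.39 for H3K4me3. This was the highest H3K27me3 level among antisense genes with at least 100 input counts, in both treatments. DLX6-AS1, from the locus of the homeobox genes DLX5 and DLX6, showed the same kind of profile on larger counts, with 2733 and 1456 H3K27me3, 510 and 741 H3K4me3 and 631 and 738 input counts. Its H3K27me3 level was 1.93 and 1.53, and its H3K4me3 change of 0.65 brought it to -0.0024.

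Further listed genes at 2 times input in H3K27me3 in DMSO included NKX2-1-AS1 at 2.11, HOXD-AS2 at 1.86, HAND2-AS1 at 1.42, PROX1-AS1 at 1.27 and LEF1-AS1 at 1.17. Their sense genes encode factors of lung and thyroid, heart and neural crest, the lymphatic endothelium and Wnt signaling, and HOXD-AS2 lies in the HOXD cluster. In all 13 genes of this list that were high in H3K27me3, H3K27me3 changed to below the median row and H3K4me3 to above it. Of all 3556 rows of any kind that were high in H3K27me3 and could be tested for both, 68.5% did so, and 3 of the 19 other genes of the list did. The H3K27me3 direction is not independent of the choice, since the genes were chosen by the DMSO library, but the H3K4me3 libraries took no part in it. The median H3K4me3 change of the 13 was 0.74, and 0.39 after dividing by the input.

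**Figure D2:**
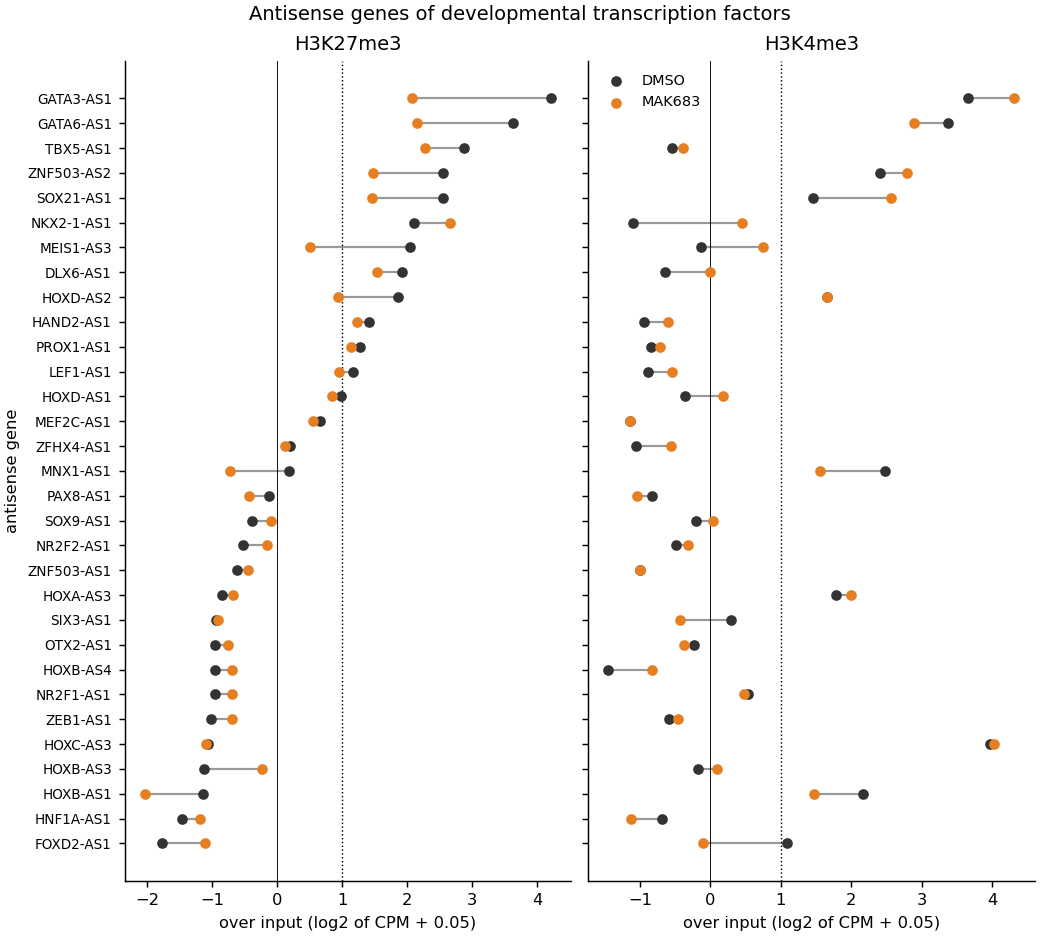
H3K27me3 (left) and H3K4me3 (right) over input, on a log2 scale, for 31 of the antisense genes of developmental transcription factors in DMSO (dark) and MAK683 (orange), joined by a line and ordered by H3K27me3 in DMSO. The dotted line is 2 times input, which 12 of the genes drawn passed in DMSO and 9 in MAK683 in H3K27me3, and GATA3-AS1 lies at the top in DMSO with 4.21.

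The antisense genes of the HOX clusters, the tandem arrays of homeobox genes that pattern the body axis, were divided between the modifications. HOXD-AS2 had 457 and 201 H3K27me3 counts and 442 and 486 H3K4me3 counts over 110 and 153 input counts, and HOXD-AS1 had an H3K27me3 level of 0.98 in DMSO. HOXC-AS3 had 1042 and 852 H3K4me3 counts but 28 and 16 H3K27me3 counts over 52 and 51 input counts, an H3K4me3 level of 3.97. HOXB-AS1 was at 2.16 and HOXA-AS3 at 1.78 in H3K4me3, both below input in H3K27me3. HOXB-AS3 and HOXB-AS4 were below input in both in DMSO. Thus among the 7 antisense genes of these clusters those of HOXD had H3K27me3 above input, and one each of HOXA, HOXB and HOXC carried H3K4me3 alone.

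In the list of matrix, secreted signal, receptor and senescence genes, PDZRN3-AS1 had the largest H3K4me3 increase of the genes that averaged 50 H3K4me3 counts or more. It went from 25 to 87 H3K4me3 counts, with 91 and 50 H3K27me3 counts and 15 and 16 input counts, an H3K4me3 change of 1.87. Its sense gene encodes a ubiquitin ligase of the neuromuscular synapse and changed by 0.17 over a row of 243 kb. MAGI2-AS3, beside the gene of a synaptic scaffold, had 559 and 302 H3K27me3 counts, 101 and 187 H3K4me3 counts and an H3K4me3 change of 0.99. GAS6-AS2, beside the gene of a ligand of TAM receptors, and HHIP-AS1, beside the gene of a Hedgehog antagonist, lost the 2-fold H3K27me3 call, with levels of 1.17 and 1.003 in DMSO and 0.04 and -0.09 in MAK683, on 30 and 25 input counts in DMSO. ADAMTS9-AS2, a noncoding gene beside a matrix protease gene, was just below 2 times input, at 0.97 with 8560 H3K27me3 counts in DMSO. EDNRB-AS1, of the endothelin receptor locus, had 21 and 41 H3K4me3 counts and a change of 1.04.

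Of the 10 antisense genes in the neural and synaptic list 3 were high in H3K27me3 in DMSO. MAGI2-AS3, described above, was also high but is not among these 3. NTRK3-AS1, opposite to a neurotrophin receptor gene, was at 1.76 with 679 and 370 H3K27me3 counts, and its H3K4me3 level went from 0.74 to 1.34. EPHA1-AS1, of an ephrin receptor gene, was at 1.33 with 3561 and 2170 counts. KIRREL3-AS3, within an adhesion molecule locus, was at 1.32 with 81 and 38 counts, and its H3K4me3 counts went from 7 to 14, too few for a firm value. The calcium channel antisense gene CACNA1G-AS1 had instead 813 and 521 H3K4me3 counts and a level of 3.23.

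FZD10-AS1, beside a Wnt receptor gene, was in none of the lists. Its H3K27me3 counts were 842 in DMSO and 494 in MAK683, with 194 and 561 H3K4me3 counts and 107 and 171 input counts. Its H3K27me3 level was 2.78 and 2.08 and its H3K4me3 level 0.52 and 1.70, and H3K4me3 changed by 1.64, with 74.3% of the counts in MAK683 (71.0 to 77.4%). The sense gene FZD10 had H3K27me3 levels of 3.22 and 2.54 and an H3K4me3 change of 1.02. PRKAG2-AS1, beside the gene of a subunit of the AMP-activated kinase, lost H3K27me3 with no H3K4me3 gain, from 104 to 36 H3K27me3 counts with 376 and 333 H3K4me3 counts. AMER2-AS1, of a Wnt regulator locus, was at 2 times input in H3K27me3 in both treatments, with 384 and 293 counts and levels of 1.76 and 2.14. Its H3K27me3 change of 0.05 turned to -0.39 with counts as deposited and to -0.07 with size factors.

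At the other end, the antisense genes highest in H3K4me3 among those with at least 100 input counts carried no H3K27me3 above input. CAPN10-AS1 had 1059 and 849 H3K4me3 counts, 22 and 17 H3K27me3 counts and 52 and 64 input counts, an H3K4me3 level of 3.99. HOXC-AS3, NOP14-AS1, LENG8-AS1, FBXL19-AS1 and CACNA1G-AS1 followed with levels from 3.97 to 3.23. PAXIP1-AS1, beside the gene of a component of an H3K4 methyltransferase complex, reached 5.14 with 970 and 632 counts over 21 and 43 input counts. TMPO-AS1, beside the gene of a nuclear lamina protein, was at 3.87 with 550 and 390 counts. The lowest H3K27me3 level among genes with at least 100 input counts was -2.16, at SETD5-AS1, with 36 and 47 H3K27me3 counts and 1038 and 733 H3K4me3 counts.

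The level of H3K4me3 followed the length of the antisense gene. The 91 genes under 5 kb had a median H3K4me3 level of 2.41 in DMSO, with 66 at 2 times input (72.5%). The 191 genes of 5 to 50 kb were at 0.13 with 57, and the 142 genes over 50 kb at -0.64 with 11. Among all rows the medians were -0.31, 0.74 and -0.34. The shares at 2 times input were 72.5%, 29.8% and 7.75% in the antisense genes and 23.9%, 44.5% and 5.99% in all rows, so antisense genes stood above all rows under 5 kb and below them from 5 to 50 kb. Under 5 kb both sets had few input counts, with medians of 59 and 42. Spearman's rho between length and H3K4me3 level was -0.55 over 424 antisense genes, which share the libraries and whose counts also rise with length. H3K27me3 in the antisense genes went the other way, with medians of -0.94, -0.74 and -0.15. Among all rows these medians were -0.31, -0.82 and -0.80 and did not rise with length. Under 5 kb antisense genes thus lay below all rows, and over 50 kb above them.

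By promoter sequence, 88 of 222 antisense genes with a CpG-rich window had H3K4me3 at 2 times input in DMSO, against 24 of 117 with other windows. The median H3K4me3 levels were 0.43 and -0.45, and over all rows 0.65 and -0.60. H3K27me3 reached 2 times input in 26 of the 222 and in 21 of the 117. Over all rows this was 697 of 9359 and 824 of 4964. The counts cover the whole gene and not the window alone.

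Between treatments, H3K27me3 was at least 2-fold lower relative to the median row in 16 of 410 antisense genes tested (3.90%, against 2.56% of all rows) and at least 2-fold higher in 14 (3.41%, against 2.76%). Of these 30 genes 27 had a mean under 50 counts. The other 3 were lower, GATA3-AS1, MEIS1-AS3 and PRKAG2-AS1. By the counting interval, the share of H3K27me3 counts in MAK683 was below that of the median row in 104 genes (25.4%, against 19.4%) and above it in 57 (13.9%, against 16.3%). Where the libraries averaged 50 counts or more, the largest increases were at SAMSN1-AS1 with 43 and 64 counts, NEXN-AS1 with 48 and 63 and PABPC5-AS1 with 66 and 82. None of the 3 was above input in H3K27me3 in DMSO.

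H3K4me3 was at least 2-fold higher in 9 of 431 antisense genes (2.09%, against 3.24% of all rows) and at least 2-fold lower in 3 (0.696%, against 1.25%). The 9 were MEIS1-AS3, PDZRN3-AS1, ADAMTS19-AS1, GATA3-AS1, KIRREL3-AS3, FZD10-AS1, EDNRB-AS1, SOX21-AS1 and BRWD1-AS1, and 7 of them were among the 57 genes high in H3K27me3 in DMSO. BRWD1-AS1 rested on 6 and 29 counts and ADAMTS19-AS1 on 18 and 62. The 3 lower genes were GRPEL2-AS1 with 84 and 38 counts, C10orf71-AS1 with 30 and 12 and STK24-AS1 with 46 and 18. By the counting interval 78 genes lay above the median row (18.1%, against 19.7%) and 113 below (26.2%, against 22.3%). Among the next largest decreases were UBXN7-AS1 with 157 and 77 counts, USP27X-AS1 with 188 and 100 and FMR1-AS1 with 118 and 64.

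Among the antisense genes, most 2-fold H3K4me3 gains lay in genes high in H3K27me3 in DMSO. The median H3K4me3 change was 0.28 in the 56 genes high in H3K27me3 in DMSO that could be tested, and -0.08 in the others. After dividing by the input the median of the 56 was 0.18, and 35 of them lay above 0 in place of 43. At least 2-fold gains were found in 7 of the 56 and in 2 of the 375 others. All rows high in H3K27me3 had a median change of 0.21, and 306 of the 3556 that could be tested gained at least 2-fold. Of all 28345 rows tested 917 did (3.24%), so over all rows most of these gains lay outside the rows high in H3K27me3. When the genes were chosen by the MAK683 library in place of DMSO, the median H3K4me3 change was 0.39 over 41 genes. Where each modification averaged 50 counts or more, 36 of 45 with high H3K27me3 changed to lower H3K27me3 and higher H3K4me3 than the median row, against 53 of 218 others. Among all such rows these were 78.5% of those high in H3K27me3 and 23.6% of the others.

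**Figure D3:**
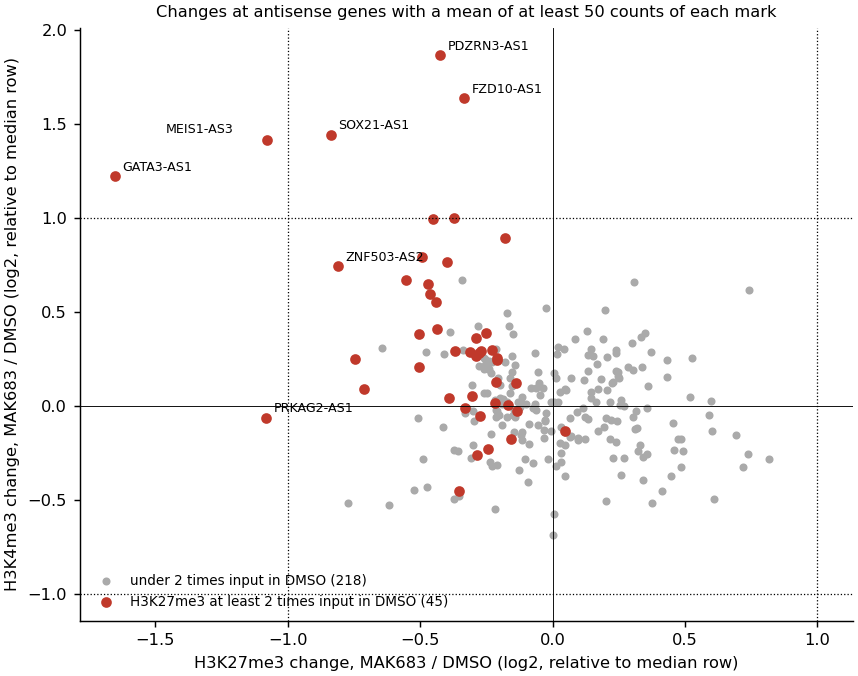
Change of H3K27me3 (x axis) and H3K4me3 (y axis) from DMSO to MAK683, log2 and relative to the median row, for 263 antisense genes that averaged 50 counts or more of each modification, with dotted lines at 2-fold. The 45 genes at 2 times input in H3K27me3 in DMSO (red) lie to the left, 36 of them above 0 in H3K4me3 and below 0 in H3K27me3, and GATA3-AS1 is farthest left at -1.65.

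In terms of classes, 26 of the 44 genes with H3K27me3 alone in DMSO kept that class in MAK683, 4 had both modifications and 14 had neither. Of the 13 genes with both, 7 kept both, 5 had H3K4me3 alone and 1 had neither. H3K4me3 alone was kept by 107 of 122 genes. Of 255 genes with neither, 4 entered the H3K27me3 class and 6 the H3K4me3 class. Over rows of any kind, 2095 of the 3730 at 2 times input in H3K27me3 in DMSO (56.2%) were so in MAK683, whatever their H3K4me3. The moves between classes were not counted over all rows. Since a class is cut at 2 times input, a move can come from a small difference near that line. A class that was kept does not mean that the amount of the modification was kept.

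Each antisense gene was then set against the sense gene of its name. For 383 antisense genes the sense row had input counts, 380 sense genes in all. Of these pairs 370 lay on opposite strands and 3 on the same strand, and the starts were within 1 kb in 262, between 1 and 10 kb apart in 59 and farther in 52. The spans overlapped in 297. Because counts followed the unshared DNA, the rows of a pair mostly stand for neighboring and not for the same DNA.

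The partners were within 2-fold of each other more often in H3K27me3 than in H3K4me3. The H3K27me3 levels in DMSO were so in 307 of 383 pairs (80.2%), and the H3K4me3 levels in 179 (46.7%). H3K27me3 also varied less over the antisense genes, with quartiles of -1.07 and 0.24 against -0.72 and 1.60 for H3K4me3. In 320 of the pairs neither partner was at 2 times input in H3K27me3. How often unrelated genes lie within 2-fold was not tested. Spearman's rho across pairs was 0.53 for H3K27me3 and 0.31 for H3K4me3, over pairs that share libraries and neighboring DNA. The median difference, antisense minus sense, was 0.03 in both modifications in DMSO. Among 236 pairs with at least 100 input counts in each row, H3K27me3 was at 2 times input in both partners in 14, in the antisense gene alone in 11, in the sense gene alone in 11 and in neither in 200. The median H3K4me3 difference of these pairs was -0.16, with the antisense gene lower by at least 2-fold in 71 and higher in 37.

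Large differences with the antisense gene on top were found at B4GALT4-AS1, WDR11-AS1 and CCNT2-AS1, each beside a sense gene with little H3K27me3. B4GALT4-AS1 was at 0.90 in DMSO, with 1267 H3K27me3 counts, and the galactosyltransferase gene B4GALT4 at -1.35, with 88. WDR11-AS1 was at 1.07 and WDR11 at -1.18, and CCNT2-AS1 at 0.76 and the cyclin T gene CCNT2 at -1.41. These antisense genes span 64.2 to 183 kb, with 77.5%, 25.5% and 64.6% of the span free of other genes. In MAK683, where the sense levels were -0.55 to -0.81, the differences were smaller. The pairs were chosen by their difference in DMSO.

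The largest differences in the other direction were at FGD5-AS1, MYLK-AS1, TTN-AS1 and CRYM-AS1. FGD5-AS1, widely expressed, was at -1.51 in H3K27me3 and 1.55 in H3K4me3, and FGD5, of the vascular endothelium, at 0.94 and -0.83. MYLK-AS1 was at -0.81 and the myosin light chain kinase gene MYLK at 1.27. TTN-AS1 was at -1.09 and the muscle titin gene TTN at 0.87, and CRYM-AS1 at -0.59 and the crystallin gene CRYM at 1.25. In FGD5-AS1, MYLK-AS1 and TTN-AS1 the antisense gene carried H3K4me3 at more than 2 times input beside a sense gene with H3K27me3 above input and H3K4me3 below it. Of their spans 46.3%, 41.9% and 1.86% are free of other genes, so these rows may stand for only part of each gene.

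At the edge of the input filter, the genes just inside were NFYC-AS1 with 21 input counts and GAS5-AS1, ALKBH3-AS1 and SSSCA1-AS1 with 20. Just outside were EPB41L4A-AS2 and ARHGEF7-AS2 with 19 and GPR50-AS1 and PARD3-AS1 with 18. EPB41L4A-AS2 had 198 and 114 H3K27me3 counts and would have been high in H3K27me3 had it been kept.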

How the data were processed

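ChIP-seq libraries of G401 cells (H3K27me3, H3K4me3 and input, DMSO or 3 µM MAK683 for 3 days) were grouped by their titles. Per the labels and the methods, the authors trimmed reads with Trim Galore 0.4.4, aligned them to hg19 with Bowtie2, removed repeats with Picard 2.23.6 and deposited raw featureCounts counts per gene. The Drosophila spike-in scaling of the methods is not carried by these counts. The gene annotation is not given in the sources used here. The antisense genes and the gene lists were chosen with earlier results of these data known. Rows with at least 10 counts of a modification in 1 library and 20 summed input counts were tested, without p-values. Shares have exact Clopper-Pearson 95% intervals. Positions are from GENCODE 44 on GRCh37, and 92 genes were found by an older symbol. Genes were named by rank at set minima (100 input counts or a mean of 50 counts) and from the lists. Members of the both-modification and 2-fold groups, and genes at the filter edge, were named after their values were seen, and some items that met these rules are not reported here. Counts were also simulated with counting error alone, and checked only at rows with a mean of 50 counts or more. There 100 of 100 genes raised and 100 of 100 lowered 4-fold were found in each modification, and 0 unchanged genes were called. The simulation does not cover calls on fewer counts, which were 27 of the 30 2-fold calls in H3K27me3, nor variation between replicates. Python 3.11.15, numpy 2.4.6, scipy 1.17.1 and pandas 2.3.3 were used. Alternatives were pseudocounts, scaling, filters, thresholds, averaging both inputs, autosomes alone, and, added after seeing the data, the unshared span, input per kb and the choice by MAK683.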

Additional observations from a re-analysis of the deposited data

How the results depend on the processing

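No paired analysis was possible because each treatment and antibody had 1 library, so leaving out a library could not be tried either. Of 198 values recomputed for the main comparisons 152 stayed within the set limits and 46 moved, and the cause was not tested unless the setting itself removes genes or loosens a threshold.

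With at least 100 summed input counts, the H3K4me3 shares at 2 times input were 17.8% in DMSO and 16.8% in MAK683, against 24.2% and 22.6% of all such rows. The median level of antisense genes minus that of all rows became 0.092 (from -0.03) for H3K27me3 in DMSO and -0.13 (from 0.28) and -0.19 (from 0.22) for H3K4me3 in the 2 treatments. H3K27me3 was then lower in 0.987% and higher in 0.658%, against 0.442% and 0.767% of all such rows. H3K4me3 was lower in 0.329% and higher in 1.32%, against 0.0988% and 0.673%. The settings for autosomes, unshared span and input per kb also left out every row without a position in GENCODE. These were 10 antisense genes and 9181 of the 29528 rows, whose median H3K4me3 level in DMSO was -0.67. The background of these settings therefore differs from that of the main comparison. On autosomes the H3K4me3 difference was -0.027 in DMSO and -0.0025 in MAK683, and the H3K27me3 difference in MAK683 was 0.13 (from 0.01). With at least 50% of the span unshared the H3K4me3 differences were 0.033 and 0.0087 and those of H3K27me3 0.13 and 0.14, and with at least 10 input counts per kb the values were -0.059 and -0.054 for H3K4me3 and 0.12 for H3K27me3 in MAK683. The median H3K4me3 change of antisense genes minus all rows (-0.05) was -0.0040 with 100 input counts and -0.0027 with unshared spans. In pairs with 100 input counts the H3K4me3 difference was -0.16 in DMSO.

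At 1.5 times input H3K27me3 was found in 21.2% in DMSO and 18.2% in MAK683 and in 19.4% of CpG-rich genes. It was found in 50.0%, 55.0% and 6.25% of the neural, matrix and widely expressed lists. The shares of all rows at 1.5 times input are not given here. The matrix list, with 5 of 20 genes above, was at 15.0% with a pseudocount of 1 CPM or the mean of both inputs, at 6.25% with 100 input counts and at 14.3% with 10 input counts per kb.

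The share 2-fold lower in H3K27me3 was 8.54% with counts as deposited (8.04% of all rows), 1.95% with a pseudocount of 0.5 CPM, 1.03% with at least 50 counts and 6.34% over input. The share 2-fold higher was 1.22% and 0.342% with that pseudocount and that count. H3K4me3 was lower in 1.16% with median-of-ratios size factors, in 0% with a pseudocount of 0.5 CPM or at least 50 counts, and in 3.94% over input. At 1.5-fold the shares were 8.05% lower and 10.0% higher for H3K27me3 and 4.18% lower and 6.50% higher for H3K4me3. Apart from the counts as deposited, shares of all rows at these settings are not given here, so no difference from all rows is read from them.

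Of the 272 values of named genes 242 stayed within the set limits. The sign turned at AMER2-AS1 in H3K27me3 (0.05, against -0.39 with counts as deposited and -0.071 with size factors), at ADAMTS19-AS1 in H3K27me3 (-0.05, against 0.036 in CPM not centered) and at GATA6-AS1 in H3K4me3 (0.90, against -0.50 over input). The median row itself changed by 0.089 in CPM and -0.43 in counts for H3K27me3 and by 0.0049 and -0.11 for H3K4me3. Depth limited the genes with few input counts, where 1 count moves a level.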
